A study of Mus musculus with 12 samples.

Results

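Transcript levels of 8 genes of the synaptic vesicle and its fusion machinery, Syn1, Syn2, Syp, Syt1, Snap25, Vamp2, Stx1a and Sv2a, were examined in mouse cortex. The genes were chosen by symbol, for what their proteins do at the synapse, from a table of read counts for 27179 genes. All 8 were found in that table, and all 8 were among the 15298 genes with enough counts to be tested. RNA was sequenced from 12 libraries in 3 groups of 4. Wild-type mice (WT) were labelled Grn+/+ and aged 287 days (WT 1) or 375 days (WT 2, WT 3 and WT 4). Progranulin-null mice (KO) were labelled Grn-/- and aged 308 days (KO 1) or 282 days (the other 3). Humanized mutant mice (MUT) were labelled Grn-/-;GRNmEx5, so they shared the Grn-/- label of the KO mice. They carried in addition an allele that the series title calls a pathogenic GRN deletion. The MUT mice were aged 287, 272, 309 and 282 days. The labels do not give the structure of the GRNmEx5 allele, the promoter that drives it, or the strain background of the 3 groups, and human GRN was not analysed here. Grn encodes progranulin, a secreted protein delivered to lysosomes, and its partial loss in people causes a frontotemporal dementia. The comparisons address whether cortex labelled Grn-/-, with or without the GRNmEx5 allele, held other amounts of these presynaptic transcripts.

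Neurotransmitter is stored in vesicles at the presynaptic terminal and released when a vesicle fuses with the plasma membrane. Synapsins coat the vesicle's outer face and hold vesicles in a reserve cluster. A SNARE protein of the vesicle, synaptobrevin 2 (Vamp2), zips together with syntaxin 1A (Stx1a) and SNAP-25 (Snap25) of the plasma membrane, and synaptotagmin 1 (Syt1) makes that fusion depend on calcium. Synaptophysin (Syp) and the transporter-like glycoprotein SV2A (Sv2a) are membrane proteins of the vesicle, and both are used widely as markers of synapse number. The proteins act at terminals, while the transcripts lie mainly in the cell bodies, so cortical RNA reports the neurons of the piece of cortex taken, whatever terminals they form. In bulk tissue, fewer neurons and less RNA per neuron cannot be told apart.

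The libraries held 16381221 to 20782195 counts each. Grn, labelled -/- in both null groups, measured 57.22, 59.95, 57.61 and 57.05 CPM (reads of a gene relative to its TMM-scaled library total) in WT 1 to WT 4. It measured 12.92, 10.8, 13.36 and 13.97 CPM in the KO libraries and 11.46, 13.75, 13.3 and 15.32 CPM in the MUT libraries, so every null library lay below every WT library. Grn reads thus remained in every null library, and the part of the gene they came from was not tested. Cortical markers were present in every library, Emx1, a transcription factor of the cortical lineage, at 15.69 CPM or more. WT 2, WT 3 and WT 4 were also higher in markers of striatal neurons than any other library. The level of an 18-gene striatal list, as mean centred log2 CPM, was 0.567, 1.412 and 2.269 in them, against -0.663 in WT 1 and -0.733 to 0.127 in the 8 null libraries. Choroid plexus markers were high in WT 4, KO 3 and MUT 1, where transthyretin (Ttr) reached 597.9, 1839 and 1283 CPM, against at most 42.75 CPM elsewhere. Of the 13 choroid plexus markers, 10 passed the filter on low counts, and Folr1, Slc4a5, Calml4 and Cldn2 were at 0 in some library. WT 1, MUT 1, MUT 2, MUT 4, KO 3 and KO 4 were labelled female and the others male. Within WT, age, labelled sex and striatal level thus changed together and cannot be told apart. In 12 of 12 libraries the sex-linked transcripts contradicted the labelled sex, which leaves the sex term of the model unchanged. The part that age and tissue makeup had in the results was not tested beyond the values given beside them.

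The 8 transcripts were among the most abundant of the cortex. On the scale of CPM per kb of exon, the only one used here to compare levels between genes, the t-SNARE Snap25 (Entrez 20614; mm10 chromosome 2, 136713450 to 136782428, plus strand) stood at 1503 ± 161 in WT (mean ± SD, n = 4), rank 3 of 15298. Syp (Entrez 20977; chromosome X, 7638580 to 7653256, plus) followed at 606.2 ± 35.92 and rank 25. Vamp2 (Entrez 22318; chromosome 11, 69088528 to 69092381, plus) stood at 498.8 ± 24.54, rank 41, and Syt1 (Entrez 20979; chromosome 10, 108497650 to 109010975, minus) at 440.7 ± 16.01, rank 50. The lower members were Syn1 (Entrez 20964; chromosome X, 20860511 to 20920918, minus) at 255.6 ± 22.68, Stx1a (Entrez 20907; chromosome 5, 135023572 to 135051099, plus) at 163.2 ± 19.89, Sv2a (Entrez 64051; chromosome 3, 96181227 to 96195183, plus) at 151.4 ± 2.793 and Syn2 (Entrez 20965; chromosome 6, 115134902 to 115282626, plus) at 114.2 ± 5.486. Their ranks were 143, 267, 304 and 508. The order of the mean levels was the same in the KO and MUT groups. Stx1a and Sv2a were the only neighbours in that order whose difference lay within the WT spread. The partners of the SNARE complex were thus present at unequal levels, with Snap25 highest and Stx1a lowest. Counts were pooled over each gene's exons, so splice forms of a gene cannot be told apart. Syn1 shares 11 exonic bases with Araf on the opposite strand, and the other members overlap no exon of another gene in the table; whether reads were counted by strand is not given in the sources used here.

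RefSeq promoter windows on GRCm38.p6 were at hand for 6 of the 8 genes, in 8 windows. The 250 bases before the start site are printed for Syn1 and Syt1, whose MUT libraries all lay below the WT libraries, and for Sv2a, the member that varied least over the libraries. Capitals mark the motifs named after the sequences, found on either strand, and each sequence runs 5′ to 3′ on the strand of its gene.
Syn1, chrX:20920919-20921168, minus strand: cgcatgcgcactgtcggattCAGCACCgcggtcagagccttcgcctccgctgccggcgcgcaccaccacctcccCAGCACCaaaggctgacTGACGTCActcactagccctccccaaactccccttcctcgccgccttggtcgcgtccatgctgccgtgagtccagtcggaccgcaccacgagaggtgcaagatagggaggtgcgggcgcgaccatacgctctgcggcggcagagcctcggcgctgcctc
Syt1, chr10:109010976-109011225, minus strand: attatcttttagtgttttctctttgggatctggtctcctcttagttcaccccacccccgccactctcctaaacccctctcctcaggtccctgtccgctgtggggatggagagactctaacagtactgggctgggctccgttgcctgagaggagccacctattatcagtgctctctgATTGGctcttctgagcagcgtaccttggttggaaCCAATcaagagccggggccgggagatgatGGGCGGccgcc
Sv2a, chr3:96180977-96181226, plus strand: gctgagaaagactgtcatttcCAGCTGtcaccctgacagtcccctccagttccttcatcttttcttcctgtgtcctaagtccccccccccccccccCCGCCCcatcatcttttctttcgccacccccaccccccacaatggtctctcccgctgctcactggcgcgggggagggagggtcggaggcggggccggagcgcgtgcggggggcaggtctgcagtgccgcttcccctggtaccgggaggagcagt
The Syn1 window held CAGCACC, the opening part of the RE1 element bound by the neuronal gene repressor REST, at -230 to -224 and again at -176 to -170 from the start. It also held TGACGTCA, the full cyclic AMP response element, at -159 to -152, which contains the core TGACG on both strands. CAGCACC on either strand occurred in 5.73% of all 32851 windows of this length, TGACGTCA in 1.55% and TGACG in 17.8%. The Syt1 window held the GC box GGGCGG at -11 to -6 and CCAAT boxes at -74 to -70 (minus strand) and -40 to -36. In the Sv2a window GGGCGG lay at -154 to -149 (minus strand) and the E-box CAGCTG at -229 to -224. GGGCGG was found in 32.7% of all windows, CCAAT in 33.8% and CAGCTG in 13%. Of the 6 genes with a window, 5 (Syn2, Syp, Syt1, Stx1a and Sv2a) held GGGCGG, and Syn1 did not. Only Syn1 held CAGCACC or TGACGTCA, and only Syn2 held the Egr-type site GCGNGGGCG, present in 4.7% of windows and overlapping a GC box there. TATAAA (12.4% of windows), GGACAGC, the closing part of RE1 (5.28%), the E-box CACGTG (6.02%) and the NRF1 site (0.782%) were found in none of the 6. A match is a description of these letters and not a bound site.

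In the comparison of KO with WT, none of the 8 transcripts passed an adjusted p of 0.05 in edgeR's quasi-likelihood test, where 0.49% of all tested genes (75) did. DESeq2 and limma-voom also called 0 of the 8. The differences were small: on the log2 scale they ran from -0.125 (Syn1) to 0.041 (Syp), with 7 of 8 below 0 and a median of -0.045, against a median over all tested genes of 0.00469. At an unadjusted p of 0.05, 1 member was lower (Syt1) and 0 were higher, while 9.71% of all tested genes were lower and 7.92% higher at that level. Syt1 was also the only member whose KO libraries all lay below its WT libraries, as for 4.82% of all tested genes, and none lay wholly above, as for 4.29%. With counts of 4887 to 72773 per library for the 8 genes, counting error was small beside the spread between libraries for most of them. For Sv2a, which varied least, counting error was a larger part of the spread.

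Syt1, the calcium sensor of fast release, measured 2093, 2169, 2203 and 2031 CPM in WT 1 to WT 4 and 1959, 2019, 1944 and 2007 CPM in KO 1 to KO 4. The gap was narrow: the highest KO library, KO 2, lay just under the lowest WT library, WT 4. The log2 fold change was -0.094 (SE 0.038, 95% interval -0.177 to -0.012), equal to a percent change of -6.34, with an edgeR adjusted p of 0.224. With the trend on exon length removed from each library it was -0.046 (edgeR adjusted p = 0.749). WT 1, the WT library of the age of the null mice and low in striatal markers, was above all 8 null libraries too. Over the 29 other settings tried, the Syt1 difference lay between -0.118 and -0.046 and was never called (lowest adjusted p 0.0881, with DESeq2).

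Syn1, the synapsin that is phosphorylated when terminals fire, measured 764.8, 847.6, 912.5 and 760.3 CPM in WT and 741.7, 769.9, 680.7 and 773.3 CPM in KO. WT 2 and WT 3 stood above every KO library, and WT 1 and WT 4 lay inside the KO range. The log2 fold change was -0.125 (SE 0.062, 95% interval -0.259 to 0.010, edgeR adjusted p = 0.324). Syn2, which shares the vesicle-binding domains of Syn1, ranged from 600.1 to 671.7 CPM in WT and from 529.9 to 651.2 CPM in KO, a log2 fold change of -0.067 (SE 0.074). The lowest Syn2 value of each group was that of the library high in choroid plexus markers.

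The transcripts of the plasma membrane SNAREs, Snap25 and Stx1a, were not called, and both intervals included 0. Snap25 measured 2841, 3324, 3596 and 2979 CPM in WT and 2796, 3033, 2828 and 3001 CPM in KO. WT 2 and WT 3 lay above every KO library, while WT 1 and WT 4 lay within the KO range. The log2 fold change was -0.119 (SE 0.070, 95% interval -0.271 to 0.033, edgeR adjusted p = 0.407). Among libraries from animals under 310 days, which leave WT 1 as the sole WT library, the Snap25 difference was 0.060, and without WT 1 it was -0.200 (edgeR adjusted p = 0.084). Stx1a, the scarcest partner of the complex, ranged from 291.6 to 391.1 CPM in WT and from 276.5 to 374.8 CPM in KO, with a log2 fold change of -0.023 (SE 0.10). Its interval, -0.242 to 0.196, was the widest of the 8, reaching from a percent change of -15.4 to 14.5.

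Vamp2 and Sv2a, both of the vesicle membrane, had the smallest differences of the 8. Vamp2, the vesicle's SNARE, measured 1080, 1110, 1123 and 1004 CPM in WT and 1078, 1104, 998.8 and 1112 CPM in KO, and the libraries of both groups were interleaved. Its log2 fold change was -0.007 (SE 0.051, 95% interval -0.117 to 0.102). Syp ranged from 1383 to 1579 CPM in WT and from 1372 to 1654 CPM in KO, with a log2 fold change of 0.041 (SE 0.057, 95% interval -0.082 to 0.164). Sv2a, the binding site of the antiseizure drug levetiracetam, measured 580.1, 594.9, 606.8 and 593 CPM in WT and 575.8, 594, 601 and 601.5 CPM in KO. Sv2a was the tightest of the 8: its log2 fold change was -0.003 with a 95% interval of -0.084 to 0.078, which bounds the percent change between -5.65 and 5.57.

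**Figure D1:**
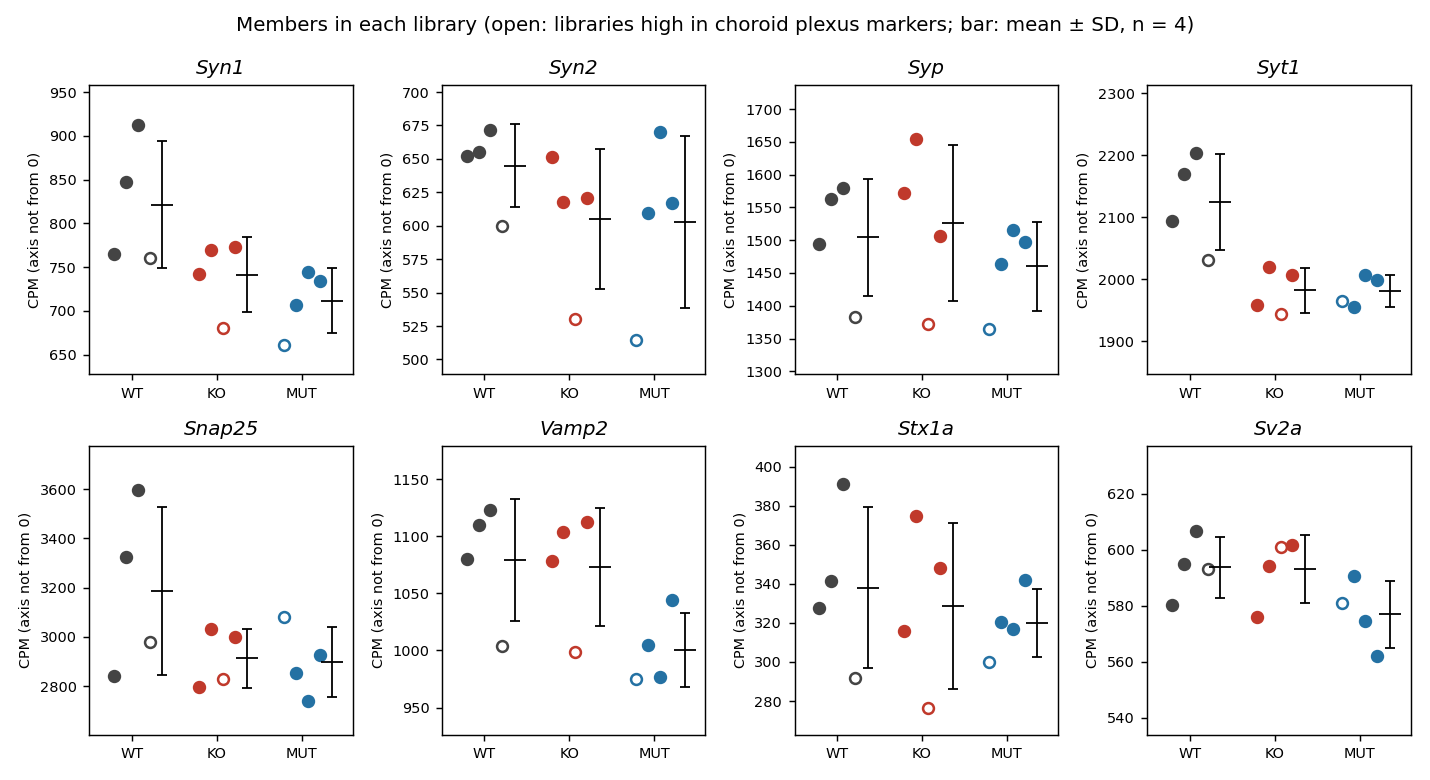
CPM of each gene in each library (points) by group, with mean ± SD (bars, n = 4); each panel has its own axis, which does not start at 0, and open circles mark WT 4, KO 3 and MUT 1, the libraries high in choroid plexus markers. Syt1 is lower in all 8 null libraries (1944 to 2019 CPM) than in the WT libraries (2031 to 2203 CPM), and for most genes the open circles lie low in their group.

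In the humanized mutant the same 8 genes were set against the same 4 WT libraries, so the differences from WT of KO and MUT share their control and are not separate evidence. None of the 8 passed an adjusted p of 0.05 in edgeR, where 0.0131% of all tested genes (2) did, and DESeq2 and limma-voom called 0 as well. The log2 fold changes ran from -0.162 (Syn1) to 0.001 (Syp), 7 of 8 were below 0, and the median was -0.068 against 0.00359 over all tested genes. At an unadjusted p of 0.05, 2 members were lower (Syn1 and Syt1) and 0 higher, beside 6.02% and 4.84% of all tested genes. The same 2 members had all MUT libraries below all WT libraries, as 3.72% of tested genes did, and 0 members had them above, as 3.37% did.

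Syn1 measured 660.8, 707, 744.1 and 734.4 CPM in MUT 1 to MUT 4. Each lay below the lowest WT value of 760.3 CPM, and the gap between the groups was smaller than the spread within either. The log2 fold change was -0.162 (SE 0.067, 95% interval -0.306 to -0.018), equal to a percent change of -10.6, with an edgeR adjusted p of 0.432. It was below 0 in each of the 29 other settings (-0.207 to -0.119) and was called in none (lowest adjusted p 0.142, without the sex term). Syt1 measured 1964, 1955, 2007 and 1998 CPM in MUT, a log2 fold change of -0.091 (SE 0.041, 95% interval -0.179 to -0.003, edgeR adjusted p = 0.449). The Syt1 means of KO and MUT were 1982 and 1981 CPM, against 2124 CPM in WT.

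Vamp2 measured 974.9, 1005, 977.2 and 1044 CPM in MUT. MUT 1 and MUT 3 lay below every WT library, MUT 2 lay beside WT 4 (1004 CPM), and MUT 4 lay between WT 4 and the other WT libraries. Its log2 fold change was -0.107 (SE 0.054, 95% interval -0.224 to 0.010, edgeR adjusted p = 0.502) and stayed between -0.160 and -0.079 over the 29 settings. Snap25 measured 3080, 2852, 2740 and 2927 CPM, with a log2 fold change of -0.118 (SE 0.076, 95% interval -0.282 to 0.046). MUT 1 was the highest MUT library for Snap25 while it was the lowest for Syn1, Syn2, Syp, Vamp2 and Stx1a. Among animals under 310 days the Snap25 difference was 0.041, and without WT 1 it was -0.220 (edgeR adjusted p = 0.114).

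The other members of the mutant group overlapped widely with WT. Syn2 ranged from 514.8 to 670.2 CPM (log2 fold change -0.045, SE 0.078), Stx1a from 300 to 342.1 CPM (-0.044, SE 0.108), Syp from 1364 to 1516 CPM (0.001, SE 0.061) and Sv2a from 561.9 to 590.4 CPM (-0.044, SE 0.040). The Sv2a interval, -0.131 to 0.043, bounds its percent change between -8.65 and 3.02, and that of Syp between -8.64 and 9.67. For Syn2 and Stx1a the intervals reached percent changes of -13.8 and -17.6.

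**Figure D2:**
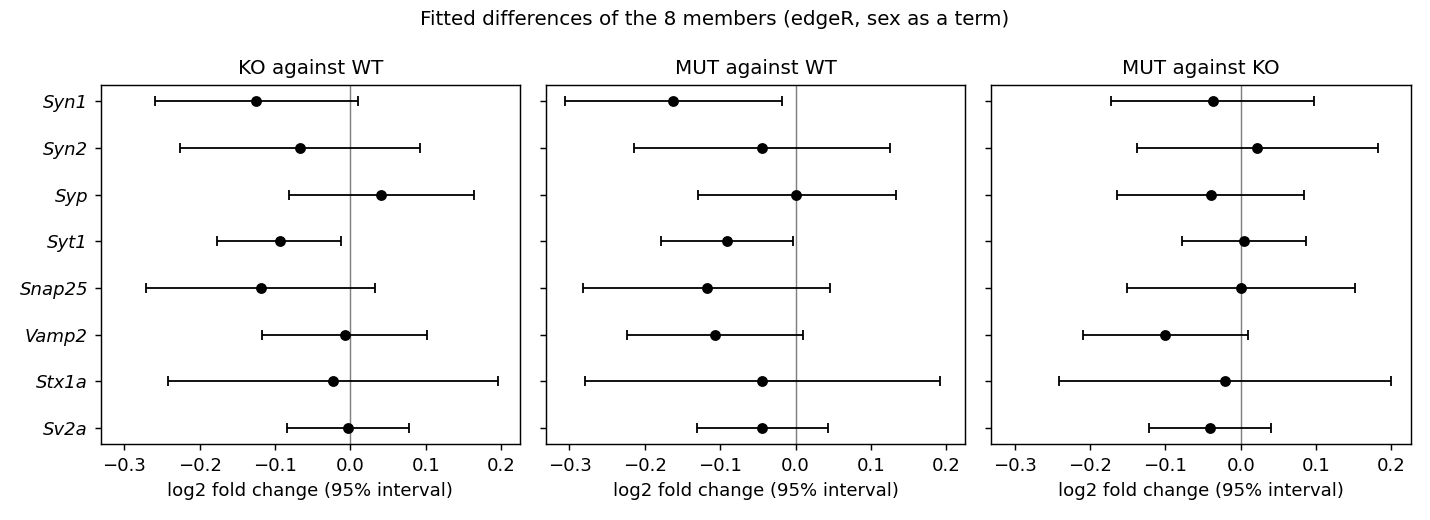
Log2 fold change of each gene in the 3 comparisons (points) with its 95% interval from the edgeR fit (lines); 0 is no difference. The points lie between -0.162 and 0.041, and the intervals that leave out 0 are those of Syt1 in KO against WT and of Syn1 and Syt1 in MUT against WT.

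The null groups were then compared with each other, which asks whether the GRNmEx5 allele went with other levels of these transcripts on the Grn-/- background. These libraries came from animals of 272 to 309 days, without the age difference of the WT group. No member passed an adjusted p of 0.05 in edgeR (0.00654% of all tested genes, 1 gene, did), and DESeq2 and limma-voom called 0. At an unadjusted p of 0.05, 0 members were higher and 0 lower, where 3.56% and 2.12% of tested genes were. The libraries of the null groups overlapped for all 8 members, while 3.37% of tested genes lay wholly higher in MUT and 1.85% wholly lower. The log2 fold changes ran from -0.10 (Vamp2) to 0.022 (Syn2), with a median of -0.029.

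Vamp2 was the member that differed most between the null groups, at 1073 ± 51.61 CPM in KO and 1000 ± 32.07 CPM in MUT (n = 4 each; log2 fold change -0.10, SE 0.051, 95% interval -0.210 to 0.010, edgeR adjusted p = 0.901). KO 3 lay within the MUT range, and the other 3 KO libraries lay above it. Syt1 and Snap25 had the smallest differences, with log2 fold changes of 0.004 (95% interval -0.078 to 0.086) and 0.001 (-0.151 to 0.152). Syn1 differed by -0.037 (-0.172 to 0.097), Syp by -0.040 (-0.164 to 0.084) and Sv2a by -0.041 (-0.122 to 0.040). On the side of higher MUT levels, the intervals reached 14.9% for Stx1a and 13.4% for Syn2. The Stx1a estimate was below 0 (-0.021), so on the log2 scale its interval reached further on the side of lower MUT levels.

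The 8 genes varied by unlike amounts over the 12 libraries. The SD of log2 CPM was 0.144 for Stx1a, 0.126 for Syn1, 0.123 for Syn2, 0.112 for Snap25, 0.087 for Syp, 0.078 for Vamp2, 0.059 for Syt1 and 0.033 for Sv2a. The median SD was 0.138 over all 15298 tested genes and 0.089 over the 1000 genes of highest mean CPM. Sv2a spanned only 1.08-fold from its lowest library to its highest, Syt1 1.13-fold and Stx1a 1.41-fold. The abundant calcium sensor and the transporter-like glycoprotein were thus the steadiest of the vesicle genes, and the syntaxin the most variable.

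Most of the members were high or low in the same libraries. WT 3 was the highest of the 12 libraries for 7 of the 8 genes, with Syp, highest in KO 2, as the exception. Within WT, the lowest library was WT 4 for 6 members and WT 1 for Snap25 and Sv2a. Within KO it was KO 3 for the same 6 members and KO 1 for Snap25 and Sv2a. Within MUT it was MUT 1 for Syn1, Syn2, Syp, Vamp2 and Stx1a. WT 4, KO 3 and MUT 1 are the 3 libraries high in choroid plexus markers, a tissue without neurons, and the part this had in their low vesicle transcripts was not tested. Without those 3 libraries the median difference of the members was -0.046 in KO and -0.106 in MUT, and 0 of 8 were called in either comparison with WT. The members summed to 9642 to 11080 CPM in WT, 9231 to 10170 CPM in KO and 9439 to 9721 CPM in MUT. Each library gave 0.9446% to 1.079% of its counts to these 8 genes.

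Most general markers of neurons also had log2 fold changes below 0. Of 16 pan-neuronal markers such as Rbfox3 and Map2, 13 had a log2 fold change below 0 in KO against WT (median -0.065) and 15 in MUT against WT (median -0.059), and 0 were called in either by edgeR. Of all tested genes, 48.7% lay below 0 in KO and 49% in MUT. At an unadjusted p of 0.05, 2 of the 16 were lower in each, beside 9.71% of all tested genes in KO and 6.02% in MUT. The summed level of these markers was 6393 to 6927 CPM in WT, 6020 to 6660 CPM in KO and 6025 to 6403 CPM in MUT. Markers of oligodendrocytes lay on the other side of 0, and edgeR called 0 of them. In KO 10 of 10 were above 0 (median 0.306), 7 of them higher at an unadjusted p of 0.05, beside 7.92% of all tested genes. In MUT 9 of 10 oligodendrocyte markers were above 0 (median 0.162), 1 of them higher at that p, beside 4.84% of all tested genes. Their summed level was 3126 to 4440 CPM in WT, 4358 to 5229 CPM in KO and 3774 to 4515 CPM in MUT, with 0 of the 10 at 0 in any library, and the part this had in the members' differences was not tested. Whether the members' differences from WT go beyond those of neuronal transcripts at large was not tested.

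**Figure D3:**
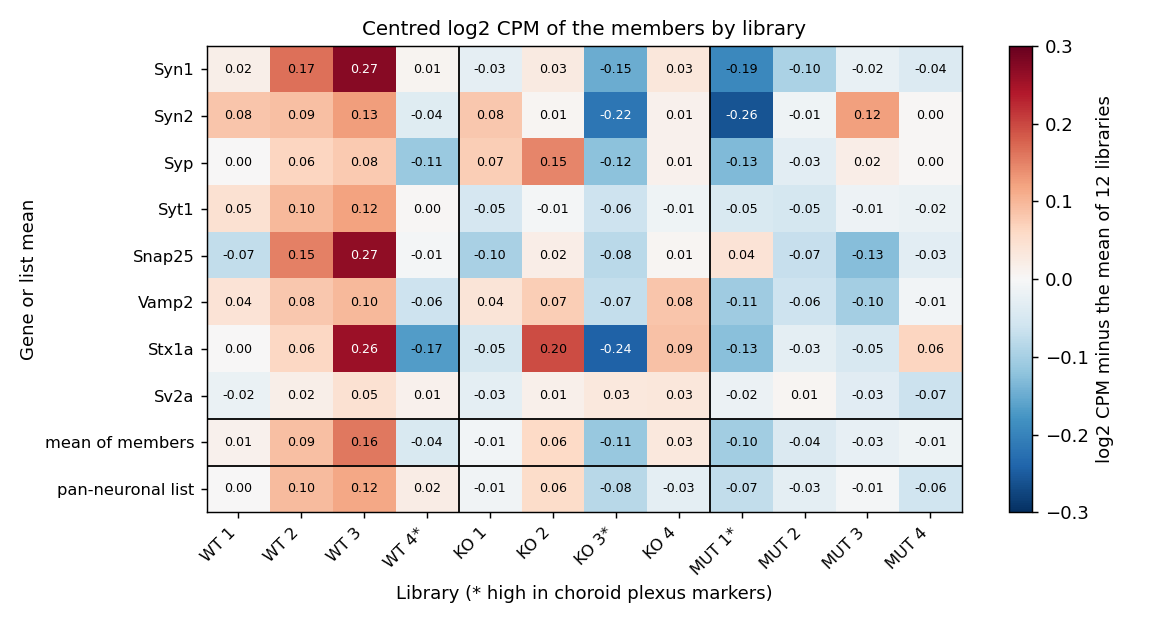
Log2 CPM of each gene (rows) in each library (columns), centred on the gene's mean over the 12 libraries; the lower rows give the mean of the 8 and of the 16 pan-neuronal markers, and the asterisk marks the libraries high in choroid plexus markers. WT 3 is above the mean in every row, KO 3 and MUT 1 are below it in most rows, and Sv2a varies least (SD 0.033).

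Most of the members have a close paralog, and the balance within each pair was read as a ratio of CPM per kb. Syn1 stood 2.24 ± 0.136 times as high as Syn2 in WT (mean ± SD, n = 4), 2.16 ± 0.11 in KO and 2.08 ± 0.128 in MUT. The synapsin of early development, Syn3, was lower by far, with a Syn1 to Syn3 ratio of 59.6 ± 9.16 in WT. Snap25 exceeded the ubiquitous Snap23 228 ± 35 times in WT, and Syt1 exceeded Syt2, the fast calcium sensor of the brainstem and of some interneurons, 42 ± 6.68 times. Vamp2 stood 9.17 ± 1.69 times as high as Vamp1, the synaptobrevin of spinal and motor neurons. In each of these pairs the named member stood higher than its paralog, and the lead of Sv2a over Sv2b was small.

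**Figure D4:**
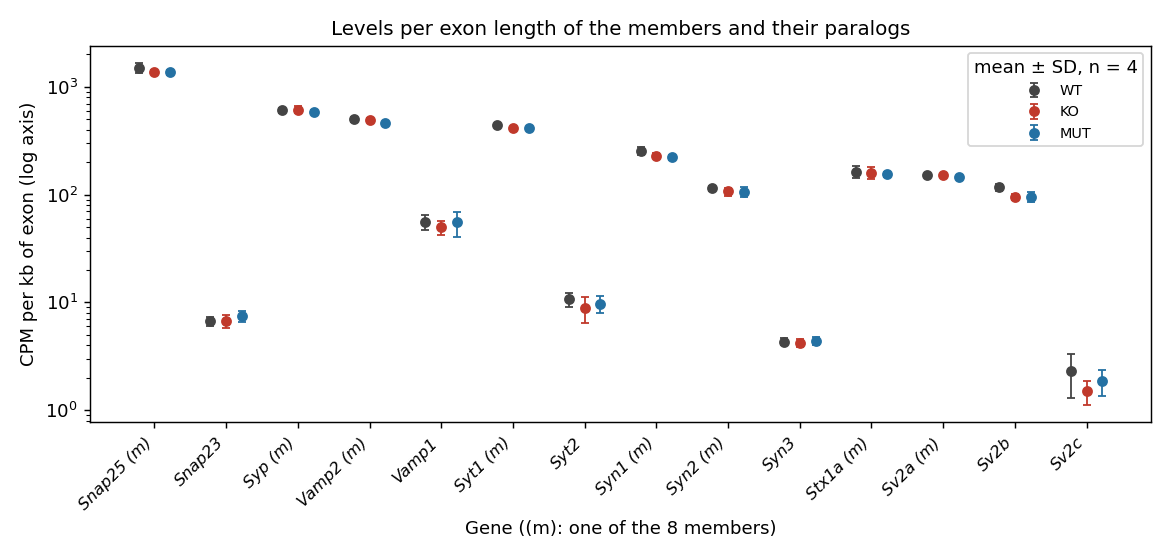
Level of the 8 genes, marked (m), and of their paralogs in each group, in CPM per kb of exon on a log axis; points are means and bars the SD (n = 4). Snap25 stands highest, at a WT mean of 1503, and Sv2c lowest, at 2.315.

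The ratio of Sv2a to Sv2b was the only pair ratio that did not overlap between WT and the null groups. It was 1.29 ± 0.0738 in WT (range 1.21 to 1.38), 1.60 ± 0.135 in KO (1.5 to 1.8) and 1.57 ± 0.196 in MUT (1.38 to 1.82). For MUT the margin was slight: the highest WT ratio (WT 1) and the lowest MUT ratio (MUT 4) both round to 1.38. The exact two-sided permutation test over the 70 splits of 4 against 4 gave p = 0.0286 for KO and for MUT, the smallest p this design allows. The adjusted p was 0.343 over the 24 ratios tested, and the p for MUT hangs on that slight margin. The difference lay on the side of Sv2b, which measured 612.5, 715.3, 700.4 and 649.9 CPM in WT and 559.7, 561.2, 485.9 and 554.2 CPM in KO. For Sv2b the KO libraries differed from WT by -0.276 (SE 0.070, edgeR adjusted p = 0.0827), while MUT stood at -0.238 (SE 0.074, adjusted p = 0.393). Sv2b was called in KO in 3 of the 29 other settings. No other pair ratio had a p under 0.0857 by the same exact test.

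The rest of the vesicle cycle was read from 117 further genes in 6 lists. Their counts in KO at an unadjusted p of 0.05 stand beside 9.71% lower and 7.92% higher of all tested genes. DESeq2 called 3.25% of all genes lower and 1.43% higher in KO, and limma-voom 0.248% lower. Of the 19 other vesicle membrane proteins, edgeR called 0 in KO against WT, and 5 were lower and 1 higher at that p, with a median log2 fold change of -0.066. DESeq2 called 3 of them lower and limma-voom 0. Besides Sv2b the smallest p belonged to Rph3a (rabphilin, an effector of the vesicle GTPase Rab3), at 660.1 ± 117.8 CPM in WT, 506 ± 22.06 in KO and 501.1 ± 38.65 in MUT (log2 fold change -0.367 in each, edgeR adjusted p = 0.133 and 0.397). WT 1, at 518.2 CPM, lay inside the null range for Rph3a, and WT 2 to WT 4 at 695.3, 798.9 and 628 CPM lay above it, the same 3 libraries that were high in striatal markers. Among animals under 310 days the Rph3a difference was 0.020 in KO, and without WT 1 it was -0.536 (edgeR adjusted p = 0.00259). Without WT 1, edgeR called 879 of all tested genes lower and 741 higher in KO.

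Of the 13 other synaptotagmins edgeR called 0 in KO, with 1 lower and 1 higher at an unadjusted p of 0.05 and a median of -0.058, and DESeq2 and limma-voom called 0. Syt7, a sensor of slow and asynchronous release, measured 548.7 ± 21.63 CPM in KO against 497.1 ± 31.71 in WT (log2 fold change 0.141, SE 0.064, edgeR adjusted p = 0.276). The Syt7 difference was -0.005 among animals under 310 days and 0.216 without WT 1. Syt12 stood at -0.254 (SE 0.111) in KO, and at -0.014 under 310 days. Syt6 stood at -0.538 (SE 0.257) in KO and -0.497 (SE 0.283) in MUT, where WT 1 (21.79 CPM) lay in the null range and WT 2 to WT 4, the libraries high in striatal markers, measured 32.51, 38.49 and 51.2 CPM. Under 310 days the Syt6 difference changed sign, to 0.261 in KO and 0.211 in MUT. Without WT 1 it was -0.863 in KO (edgeR adjusted p = 0.0297), where 879 of all tested genes were called lower. Of the other SNAREs 18 of 19 were tested and 0 called by any of the 3 tools. In KO, 4 of the 18 were higher and 1 lower at an unadjusted p of 0.05, beside 7.92% and 9.71% of all tested genes, with a median of 0.041, on the other side of 0 from the members' median. Stx3, a syntaxin of dendritic and ribbon-synapse fusion, measured 41.46 ± 3.533 CPM in KO against 34.93 ± 2.421 in WT (log2 fold change 0.205, SE 0.060, edgeR adjusted p = 0.114). Stx5a, the syntaxin of transport into the Golgi, measured 63.62 ± 1.686 against 55.72 ± 3.898 CPM (0.169, SE 0.050, edgeR adjusted p = 0.115). All KO libraries lay above all WT libraries for both, as for 4.29% of all tested genes. For Stx5a the margin was slight, 61.56 CPM in KO 1 against 61.46 CPM in WT 1. Its difference was 0.077 under 310 days. Without WT 1 it was 0.216 (edgeR adjusted p = 0.0269), where 741 of all tested genes were called higher. Vti1a, an endosomal SNARE, stood at -0.078 in KO and -0.151 in MUT, and under 310 days at 0.082 and -0.008.

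Among the 18 factors that assemble or take apart the SNARE complex, 6 were lower and 0 higher in KO at an unadjusted p of 0.05 (9.71% and 7.92% of all tested genes were), and the median was -0.088. EdgeR called 0 of them, DESeq2 2, both lower (3.25% of all genes), and limma-voom 0. Nsf, the ATPase that takes spent SNARE complexes apart, measured 1115 ± 43.52 CPM in WT, 1008 ± 31.7 in KO and 1050 ± 66.44 in MUT (-0.119 in KO, SE 0.039, edgeR adjusted p = 0.144). Cplx2, a complexin that clamps the partly zipped complex, measured 1203 CPM in WT 1 and 1476, 1604 and 1517 CPM in WT 2 to WT 4, against 1160 to 1268 CPM in KO. The Cplx2 log2 fold change was -0.229 (SE 0.073, edgeR adjusted p = 0.135). It rested on WT 2 to WT 4, which were older, labelled male and high in striatal markers, traits that cannot be told apart here. Among animals under 310 days, with WT 1 alone for WT, it was -0.012.

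Of the 21 genes of vesicle filling, the transmitter transporters and the proton pump, edgeR, DESeq2 and limma-voom called 0 in KO. There, 2 were lower and 1 higher at an unadjusted p of 0.05, with a median of -0.018. Slc32a1, the vesicular GABA transporter, measured 124.3 ± 20.41 CPM in WT, with WT 4 highest at 154.4, and 104.6 ± 8.029 in KO (-0.245, SE 0.105; -0.020 under 310 days). Slc17a8, a vesicular glutamate transporter of scattered neurons, stood at 4.610 ± 1.103 and 3.041 ± 0.1807 CPM (-0.539, SE 0.197). The pump subunits Atp6v1f and Atp6v1h differed in opposite directions in MUT, at 0.126 (SE 0.052) and -0.109 (SE 0.048). None of these 4 had an adjusted p under 0.184.

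Dnajc6 was the only gene of the 117 that passed the test, in KO against WT, where 0.49% of all tested genes passed. It encodes auxilin, the neuronal co-chaperone that strips clathrin from vesicles retrieved from the membrane. It measured 376.3, 411.6, 415 and 398.3 CPM in WT, 338.7, 334.6, 333.4 and 349.3 CPM in KO and 349.4, 354.1, 359.6 and 342.4 CPM in MUT. All 8 null libraries lay below all WT libraries. KO fell below WT by 0.229 on the log2 scale (SE 0.041, 95% interval -0.318 to -0.140, edgeR adjusted p = 0.0397), and the MUT difference was -0.168 (SE 0.044, adjusted p = 0.359). The call in KO was kept in 13 of the 29 other settings. It was lost among animals under 310 days (-0.154, edgeR adjusted p = 0.521) and among libraries labelled female (-0.139, adjusted p = 0.784, the smallest difference of the 29 settings). It was also lost with sex and age as terms (-0.149, adjusted p = 0.567), with the length trend removed (-0.172, adjusted p = 0.168), with the striatal level as a term (-0.212, adjusted p = 0.246), with the replicate block (-0.231, adjusted p = 0.109), with only the groups compared (-0.228, adjusted p = 0.157) and without the 3 libraries high in choroid plexus markers (-0.232, adjusted p = 0.108). Leaving out WT 2, WT 4, MUT 2, MUT 3, MUT 4, KO 1, KO 2 or KO 3 ended the call as well, with differences of -0.233 to -0.211. Over the whole list of 27 endocytosis genes, 7 were lower and 2 higher in KO at an unadjusted p of 0.05, beside 9.71% and 7.92% of all tested genes, and the median was -0.053. DESeq2 called 5 of them lower and 1 higher, beside 3.25% and 1.43% of all genes, and limma-voom 1 lower, beside 0.248%.

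In MUT against WT edgeR called 0 of the 117 genes, beside 0.0131% of all tested genes. The medians of the 6 lists were -0.080 for the other vesicle membrane proteins, -0.043 for the synaptotagmins, 0.038 for the other SNAREs, -0.046 for the assembly factors, -0.033 for vesicle filling and -0.039 for endocytosis. At an unadjusted p of 0.05 the lists held 4, 0, 2, 2, 1 and 6 lower and 0, 0, 1, 0, 2 and 2 higher genes in that order, beside 6.02% lower and 4.84% higher of all tested genes. DESeq2 called 1 assembly factor and 1 endocytosis gene lower, beside 0.249% of all genes, and limma-voom 0. Between MUT and KO the list medians lay between -0.032 and 0.007, 0 genes were called by any of the 3 tools, and Nsf (0.084, SE 0.039, edgeR adjusted p = 0.878) was the assembly factor with an unadjusted p under 0.05.

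**Figure D5:**
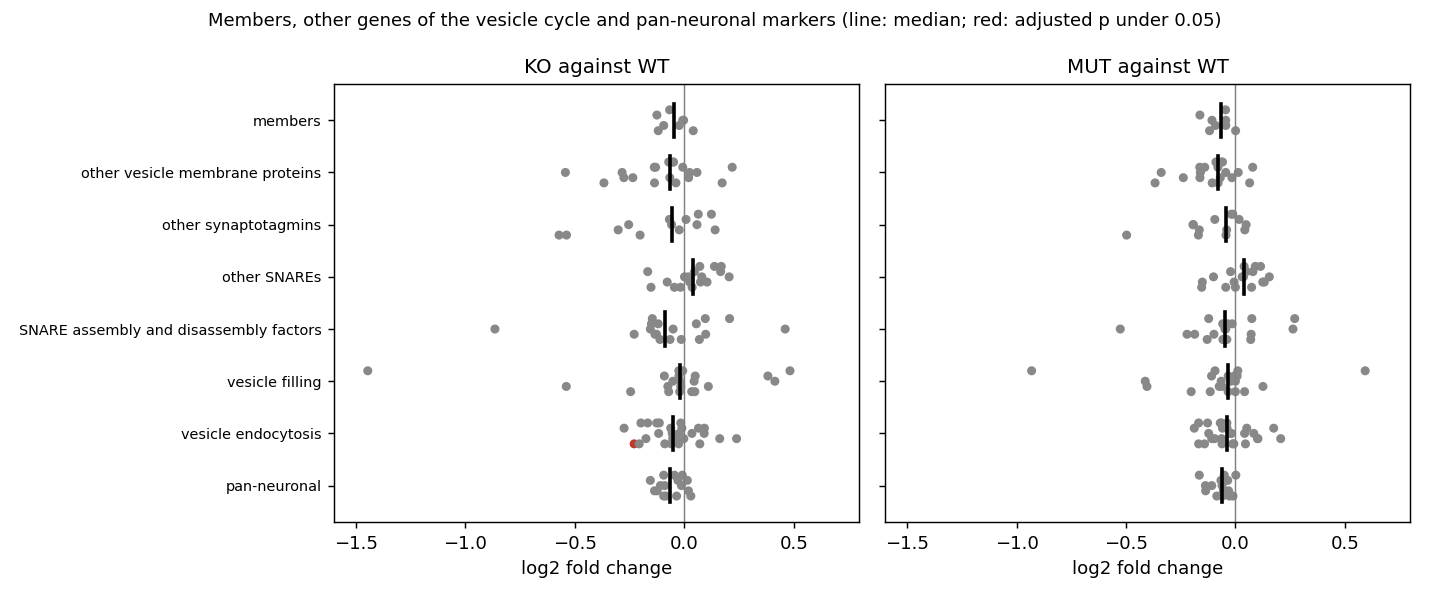
Log2 fold change of every tested gene (points) of the 8 vesicle genes (members), the 6 further lists and the pan-neuronal markers, for KO and MUT against WT, with the list median as a line; a red point is a gene past an adjusted p of 0.05. The medians lie between -0.088 and 0.041, and Dnajc6 in KO is the only red point.

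Genes whose profile over the 12 libraries lay closest to the mean of the 8 were named by the root mean square difference of centred log2 CPM, among 11550 tested genes that varied at least as much. They were B4galnt1 (0.026), Sirpa (0.028), Smap2 (0.028), Ywhag (0.028), Arhgdia (0.029) and Sh3glb2 (0.030). B4galnt1 makes complex gangliosides, Sirpa is a membrane receptor for CD47 and Ywhag is a 14-3-3 protein. None of the 6 was called in KO or MUT against WT, where their log2 fold changes were -0.085 to -0.023 and -0.105 to -0.041. For the single members the nearest genes were Dpp9 for Syn1 (0.035), Chst1 for Syn2 (0.042), Thop1 for Syp (0.039), Rab14 for Syt1 (0.021), Ppme1 for Snap25 (0.047), Vti1b for Vamp2 (0.040), Cx3cl1 for Stx1a (0.079) and Bag6 for Sv2a (0.023). The points share library depth and tissue makeup, and a small difference says only that the profiles are alike. Among the 8 themselves the most alike pairs were Syt1 with Sv2a (0.054), Syp with Vamp2 (0.055) and Syt1 with Vamp2 (0.058), and the least alike was Syn2 with Snap25 (0.146).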

How the data were processed

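Directional libraries were made with a NEBNext Ultra II kit from total RNA of mouse cortex, as the labels' protocols state. What the authors deposited is a table of raw counts per gene for the 12 libraries, with exon coordinates and lengths in the layout of featureCounts, per the file headers. The build (mm10), R 4.1.2 and DESeq2 1.34.0 come from the submitters' processing notes; the aligner, the counter and its use of strand are steps not given in the sources used here. The 1049 genes without a symbol stayed in the library totals and tests.

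Genes were kept with filterByExpr (minimum count 10, minimum total 15), scaled by TMM, and edgeR 4.0.16 under R 4.3.3 fitted a quasi-likelihood model of all 12 libraries with 3 group means and labelled sex (8 residual degrees of freedom, robust shrinkage). The Benjamini-Hochberg threshold was 0.05 over all 15298 tested genes. CPM uses TMM-scaled totals, and log2 CPM a prior count of 2. Intervals are 95% intervals of the fit. No label states that every library is a different animal, and p values then describe the spread among libraries, which may be technical; the closest of the 66 library pairs differed by more than sampling noise (chi-square per degree of freedom 3.62). The edgeR step was tested on simulated counts, with changes of 1.3-fold or more put into genes drawn from all those tested. Of 50 genes changed 1.3-fold it called 34% in KO against WT, 38% in MUT against WT and 42% in MUT against KO. Smaller changes were not simulated, so a gene not called may still differ by amounts of this size.

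The members and gene lists were chosen with earlier results of these data known. Named were all 8 members, their closest paralogs, up to 4 called genes of each list or, where none was called in any comparison, the 2 of smallest p in KO and in MUT against WT, and the genes of most similar profile; Y-linked genes, Xist and predicted genes are not named, and a few genes that the rule names are not reported here. Alternatives were other scalings and filters, DESeq2 1.42.0, limma-voom (limma 3.58.1), other covariates, parts of the library set and leaving out each library; a fit without robust shrinkage was added after seeing the data. Promoter windows are RefSeq's, on GRCm38.p6.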

Additional observations from a re-analysis of the deposited data

How the results depend on the processing

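No member was called in any comparison under any of the 29 other settings. The number of genes called did change. For KO against WT it was 75, against 647 with DESeq2, 294 without the sex term, 15 with the length trend removed, 11 under 310 days, 1163 among libraries labelled male, 3 with only the groups compared and 2 with sex and age as terms, with the replicate block, among libraries labelled female, without the 3 libraries high in choroid plexus markers or with the striatal level as a term. Leaving out a library gave 1 to 1620: 1620 without WT 1, 1 without WT 2, WT 4, MUT 4 or KO 1, 2 without KO 2, 4 without KO 3, 5 without MUT 3, 11 without MUT 2 and 170 without WT 3. For MUT against WT it was 2, against 52 with DESeq2, 6 without the sex term and 311 among libraries labelled male, and 2 to 1030 on leaving out a library (1030 without WT 1). For MUT against KO it was 1, against 15 with DESeq2, 39 with only the groups compared, 37 under 310 days, 2 with sex and age or among libraries labelled male, and 1 to 18 on leaving out a library (18 without WT 3, 5 without WT 1, 2 without KO 2). Same-numbered libraries did not deviate together (residual correlation -0.377 to 0.289 over 12 pairs, 1 over 0.1, and 2 libraries correlated best with their own number), so the numbers were not taken as pairs. Syn1 and Syt1 stayed below 0 against WT in all 29 settings, as did Syn2 in KO and Vamp2 and Sv2a in MUT. In what follows, males and females mean libraries so labelled, though the sex-linked transcripts contradicted that label in 12 of 12 libraries. Several members changed sign, and the cause was not tested. Snap25 did so although its difference from WT was among the larger, at -0.119 in KO and -0.118 in MUT. In KO against WT, Vamp2 turned to 0.019 with library size alone and 0.022 among males, Stx1a to 0.003 and 0.022, and Sv2a to 0.024 with library size alone, 0.031 with sex and age, 0.045 under 310 days, 0.053 among females, 0.020 with the striatal level and 0.031 without the length trend. There, Syp turned to -0.071 with sex and age, -0.034 under 310 days, -0.053 among females and -0.045 with the striatal level, and Snap25 to 0.026, 0.060 and 0.038 under the first 3 of these. In MUT against WT, Syp turned to -0.044 without the sex term, -0.092 with sex and age, -0.003 with the replicate block, -0.022 with only the groups compared, -0.065 under 310 days, -0.051 among females, -0.027 without the 3 choroid-high libraries, -0.083 with the striatal level and -0.005 without the length trend. There, Snap25 turned to 0.002 with sex and age, 0.041 under 310 days and 0.057 among females, and Syn2 to 0.063 among males. In MUT against KO, Snap25 turned to 0 (limma-voom), -0.007 (no sex term), -0.024 (sex and age), -0.003 (replicate block), -0.021 (only the groups compared), -0.020 (under 310 days), -0.093 (males) and -0.034 (without the choroid-high libraries). There, Syn2 turned to -0.005 without the sex term and -0.015 without the length trend, Syt1 to -0.001 without the sex term, -0.003 among females and -0.025 without the length trend, and among females Syp to 0.002 and Stx1a to 0.039. On leaving out each library in turn, KO against WT ranged from 0 to 0.079 for Syp (lowest without WT 4), -0.038 to 0.024 for Vamp2, -0.101 to 0.046 for Stx1a and -0.024 to 0.015 for Sv2a. MUT against WT ranged from -0.10 to 0.034 for Syn2, -0.035 to 0.048 for Syp and -0.10 to 0.019 for Stx1a, and MUT against KO from -0.073 to 0.014 for Syn1, -0.036 to 0.078 for Syn2, -0.005 to 0.017 for Syt1, -0.029 to 0.064 for Snap25 and -0.111 to 0.040 for Stx1a. Results under 310 days and among libraries labelled female rest on WT 1 alone for WT. Results among libraries labelled male rest on MUT 3 alone for MUT.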
